A study of Mus musculus with 18 samples.

Results

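The mitochondrial ribosomal protein genes were taken as the genes of the deposited table whose symbol is Mrpl or Mrps followed by digits and nothing else. This gave 75 of 18946 genes, 49 named for the large subunit (Mrpl) and 26 for the small subunit (Mrps). All 75 passed the filter on low values, which asked for at least 0.5 TPM (a level corrected for gene length and library size) in at least 8 of the 18 libraries and left 13895 genes for testing. The libraries were made from whole livers of male C57BL/6J mice, 8 Young (6.18 months by the labels) and 10 Old (19.76 months), with no allele or diet separating the groups. The design text rounds these ages to 6 and 20 months. Every mouse of both groups had a jugular catheter, a 14-hour fast and a 150-minute hyperinsulinemic-euglycemic clamp with infused isotope tracers before the liver was frozen, so no liver in the study was free of raised insulin. RNA was extracted with 2 kits, AllPrep for 3 Young and 5 Old livers and RNeasy for 5 Young and 5 Old livers, and ribosomal RNA was removed before sequencing.

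Mitochondria carry their own ribosome, which translates the few proteins encoded in mitochondrial DNA, all of them subunits of the respiratory chain and the ATP synthase. Its ribosomal RNAs come from the mitochondrial genome, whereas every one of its proteins is encoded in the nucleus, made in the cytosol and imported. Some of these proteins have counterparts in the bacterial ribosome, and others were gained during the evolution of mitochondria. Liver is rich in mitochondria, whose respiratory chain supports its fasting metabolism.

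The deposited values were whole-read counts divided by gene length and scaled to TPM, from which 85790735 to 127487820 reads per library were recovered. Levels are given as scaled TPM, the deposited TPM divided by a library factor (0.876 to 1.08) that evens out differences in composition between libraries. The 10 hepatocyte markers summed to 97666 to 135596 scaled TPM in Young and 102498 to 144809 in Old libraries, so the defining genes of the labelled tissue were present. In the age test described below, 2.44% of all genes tested were higher in Old. Of 5 markers of lipid-associated macrophages, all detected, 3 passed that test as higher (Mmp12, Trem2 and Gpnmb). Their means were 0.42, 0.82 and 0.57 scaled TPM in Young and 3.51, 2.92 and 7.61 in Old libraries. Cd9 and Spp1 did not pass, with means of 31.2 and 30.4 in Young and 48.2 and 28.2 in Old. All 5 summed to 47.1 to 94.8 scaled TPM in Young and 50.7 to 312.7 in Old libraries, where Cd9 alone reached 204.8. Of 5 markers of B and plasma cells 1 passed as higher (Jchain), with sums of 3.46 to 8.09 in Young and 6.26 to 30.8 in Old. In the other 7 marker lists 0 passed, and the part of such cells in the results on mitochondrial ribosomal proteins was not tested. Young replicate 1 and Old replicate 5, both extracted with AllPrep, stood apart in having high values for short genes and low values for long ones. With the tested genes in 10 classes of equal size by length, class 1 the shortest, the median gene of class 2 lay 0.19 (log2) above its mean over libraries in Young replicate 1 and 0.11 above in Old replicate 5. The median gene of class 10 lay at -0.24 and -0.14. The gap between these classes, called the short-minus-long difference here, was 0.43 and 0.26 in those libraries and between -0.19 and 0.04 in the other 16.

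The 75 genes spanned a 53.0-fold range of levels. Mean scaled TPM over the 18 libraries ran from 2.97 (Mrps25) to 157.3 (Mrpl12) with a median of 26.0, and 60 of the 75 lay between 10 and 70. Genes named for the large subunit had a median of 25.9 and those named for the small subunit 26.5. The 45 genes with a bacterial counterpart had a median of 28.7 and the 29 specific to mitochondria 25.9, with Mrps36 in neither class. The smallest number of reads behind any member in any library was 192 (Mrps36) and the largest 10739 (Mrpl12).

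Mrpl12, the stalk protein that recruits translation factors to the large subunit, was the most abundant member. It ran from 143 to 207 scaled TPM (median 159) in Young and from 125 to 196 (median 149) in Old libraries. The groups overlapped, and the highest Young value came from replicate 1. The next in order were Mrpl52 (mean 100.1 scaled TPM), a mitochondria-specific subunit, Mrps21 (86.2), Mrpl33 (80.6) and Mrpl42 (80.3), the last another mitochondria-specific subunit. The standard deviations of Mrps21, Mrpl33 and Mrpl42 within a group lay between 8.58 and 12.8, and the order of their means was not tested. None of the 5 passed the age test, with log2 differences (Old minus Young) from -0.13 to 0.05 and limma adjusted p from 0.403 to 0.966. At the low end stood Mrps25 (2.97 scaled TPM), Mrpl4 (4.22), Mrpl3 (4.89), Mrpl19 (5.33) and Mrps36 (7.43). Mrpl3 and Mrpl4 are core proteins of the large subunit with bacterial counterparts. Mrps36 does not encode a ribosomal subunit. Its protein is an adaptor of the 2-oxoglutarate dehydrogenase complex of the citric acid cycle that kept its older name. Its level was 6.03 to 8.83 scaled TPM in Young and 6.10 to 9.001 in Old libraries, with a log2 difference of 0.10 ± 0.07 (SE) and a limma adjusted p of 0.413.

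Whether the transcripts differ with age was asked with a single limma fit over all 13895 genes, on log2(scaled TPM + 0.5) with age and kit as terms and Benjamini-Hochberg adjustment over all genes tested. In whole liver, fewer cells of a type and less RNA per cell cannot be told apart. Of the 75 members, 4 were lower in Old (5.33%) and 0 were higher at an adjusted p under 0.05. Over all genes tested, 2.47% were lower and 2.44% higher. Without the threshold on the adjusted p, 16 members were lower and 2 higher at an unadjusted p under 0.05. These were 24% of the members, where 23.4% of all genes tested had such a p, 11.6% lower and 11.8% higher. The log2 difference was below 0 for 64 of 75 members (85.3%) and for 49.1% of all genes tested. Its median was -0.10 over the members and 0.0037 over all genes. The largest difference, that of Mrpl20 (-0.32 ± 0.10, SE), came to 1.24-fold and did not pass the test (adjusted p = 0.0651). With TPM left as deposited, the median over all genes moved to 0.055, the members' median to -0.046, and 53 members were below 0 and 22 above. On that scale 0 members passed, against 3.81% of all genes tested. Over all genes the calls then split into 341 higher and 188 lower in place of 339 and 343.

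**Figure D1:**
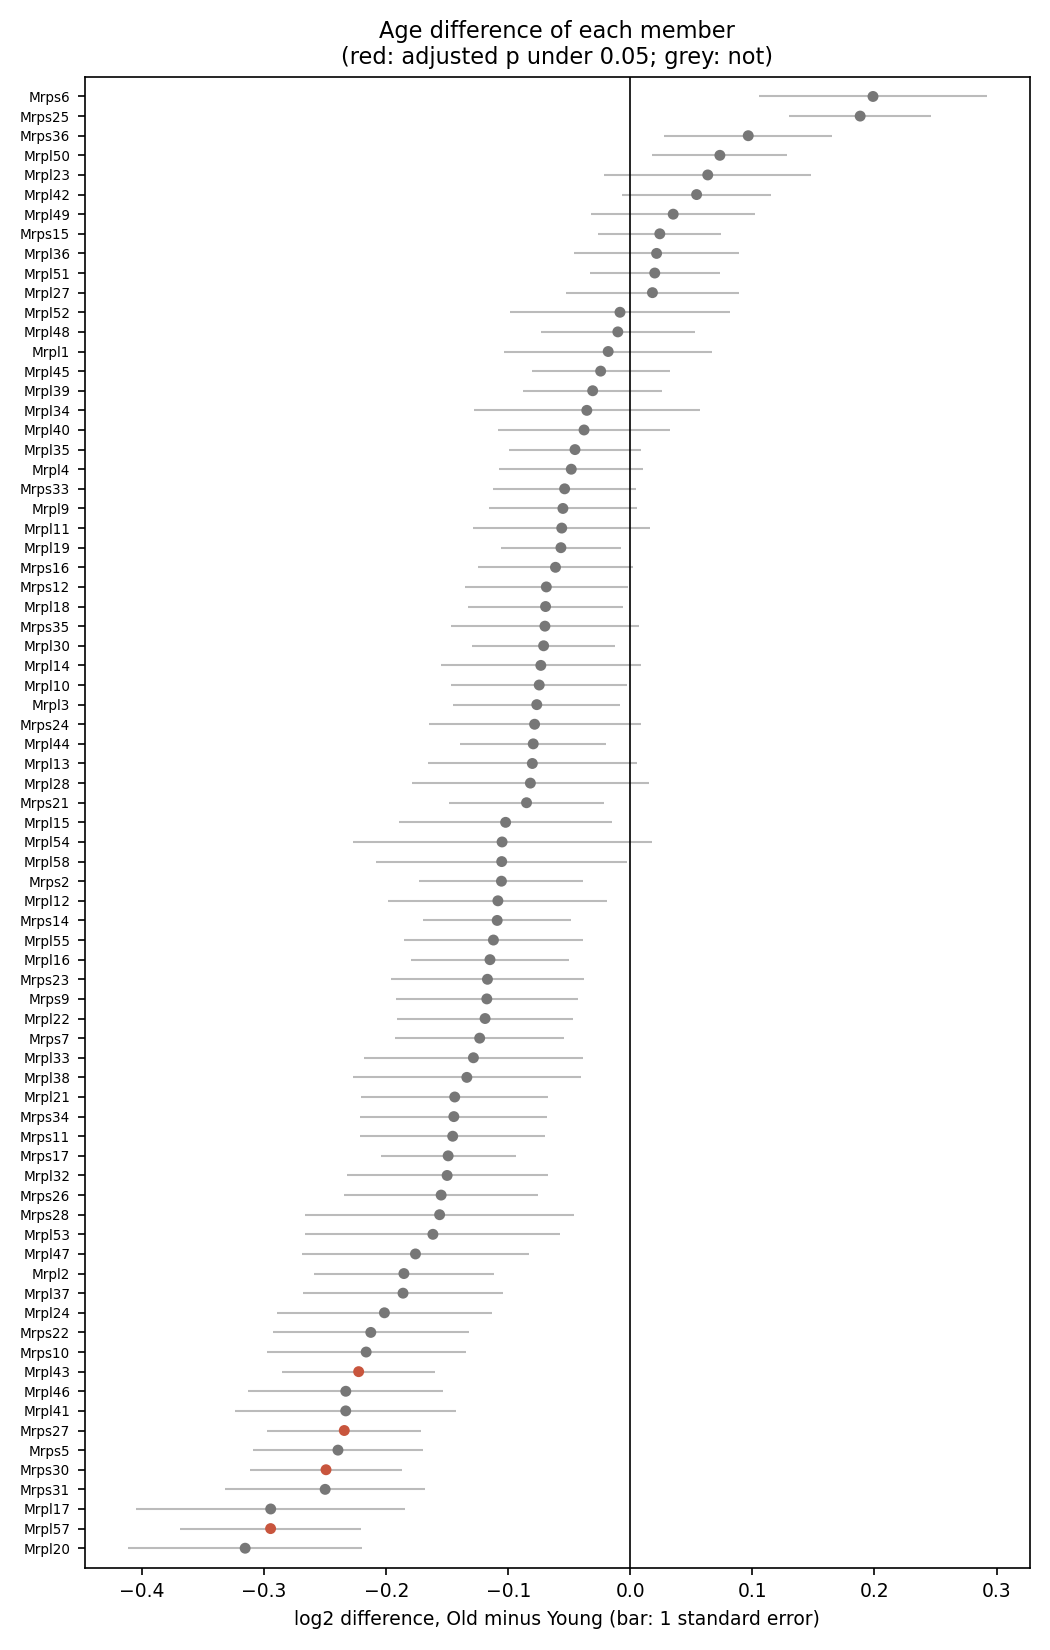
Log2 difference between Old and Young liver (horizontal axis, log2 of scaled TPM plus 0.5, age and kit fitted) for each of the 75 mitochondrial ribosomal protein genes, ordered by size. Points are estimates and bars 1 standard error. Of the 75, 64 lie left of 0 and the 4 red points (Mrpl57, Mrps30, Mrps27, Mrpl43) passed the adjusted threshold.

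The 4 members that fell were Mrps30, Mrpl57, Mrps27 and Mrpl43. All 4 encode subunits specific to mitochondria, which made it 4 of 29 such members against 0 of the 45 with a bacterial counterpart. Over all genes tested, 2.47% were lower. The median log2 differences of these classes were -0.11 and -0.09, and the difference between the classes was not tested. The counts rest on the threshold, as Mrps5 and Mrpl20, both with a bacterial counterpart, lay just outside it (limma adjusted p = 0.0551 and 0.0651). By name, 2 of the 49 Mrpl genes and 2 of the 26 Mrps genes passed, with medians of -0.08 and -0.12.

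Mrps30 (ENSMUSG00000021731) is named for the small subunit, although its protein sits in the large one. Its level was 24.3, 26.9 and 37.2 scaled TPM (lowest, median and highest) in the 8 Young libraries and 19.9, 24.3 and 27.8 in the 10 Old libraries. The groups overlapped, with 5 of 10 Old libraries below every Young library, and Young replicate 1 stood far above the other Young libraries (24.3 to 30.0). The means were 28.3 ± 4.04 (SD, n = 8) and 24.1 ± 2.36 (SD, n = 10). Mrps30 fell by 0.25 ± 0.06 (SE) on the log2 scale (limma adjusted p = 0.0307). Without Young replicate 1 the value was -0.20 with an adjusted p of 0.0585.

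Mrpl57 encodes a mitochondria-specific protein of the large subunit. Its level was 9.61, 10.0 and 12.2 scaled TPM in Young and 6.61, 8.37 and 9.90 in Old libraries. Of the 10 Old libraries, 9 lay below every Young library. Old replicate 14 alone reached into the Young range, and Young replicate 1 was again the highest. Old replicate 5 lay only just below that range, at 9.6074 against 9.6075 in Young replicate 10. In TPM as deposited more Old libraries reached into the Young range. The means were 10.3 ± 0.836 (SD, n = 8) and 8.24 ± 1.09 (SD, n = 10). Mrpl57 fell by 0.29 ± 0.07 (SE) on the log2 scale (limma adjusted p = 0.0316), the largest change among the 4. Without Young replicate 1 the value was -0.24 with an adjusted p of 0.0644, and without both Young replicate 1 and Old replicate 5 it was -0.27 with an adjusted p of 0.0259, the only member that then passed, where 1.7% of all genes were lower.

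Mrps27 encodes a pentatricopeptide repeat protein of the small subunit, a class of protein that binds RNA. Its level was 14.6, 15.6 and 18.0 scaled TPM in Young and 10.9, 13.8 and 15.4 in Old libraries. All 10 Old libraries lay below the Young median and 8 below every Young library, and the highest Young library here was replicate 3. The means were 16.1 ± 1.20 (SD, n = 8) and 13.6 ± 1.31 (SD, n = 10). Mrps27 fell by 0.23 ± 0.06 (SE) on the log2 scale (limma adjusted p = 0.0404). Without Young replicate 1 the value was -0.20 with an adjusted p of 0.0858.

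Mrpl43 is a mitochondria-specific subunit of the large particle. Its level was 23.2, 25.8 and 33.6 scaled TPM in Young and 19.8, 23.5 and 26.7 in Old libraries. The groups overlapped most here, with 4 of 10 Old libraries below every Young library. The means were 26.8 ± 3.46 (SD, n = 8) and 23.2 ± 2.25 (SD, n = 10). Mrpl43 fell by 0.22 ± 0.06 (SE) on the log2 scale (limma adjusted p = 0.0482), just under the threshold, and its adjusted p was 0.102 without Young replicate 1. Its exons overlap those of Twnk, the mitochondrial DNA helicase, on the opposite strand. Twnk was at 15.7 ± 1.12 scaled TPM in Young and 17.2 ± 2.25 in Old, a log2 difference of 0.10 with an adjusted p of 0.444. No source used here states a strand setting for the counting. If strand was not used, reads from the shared positions cannot be told apart. In the GENCODE annotation of GRCm38, 31 of the 75 members share exon positions with another gene, 20 of them with a protein-coding gene on the opposite strand. Mrps30, Mrps27 and Mrpl43 are among the 31 and Mrpl57 is not.

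**Figure D2:**
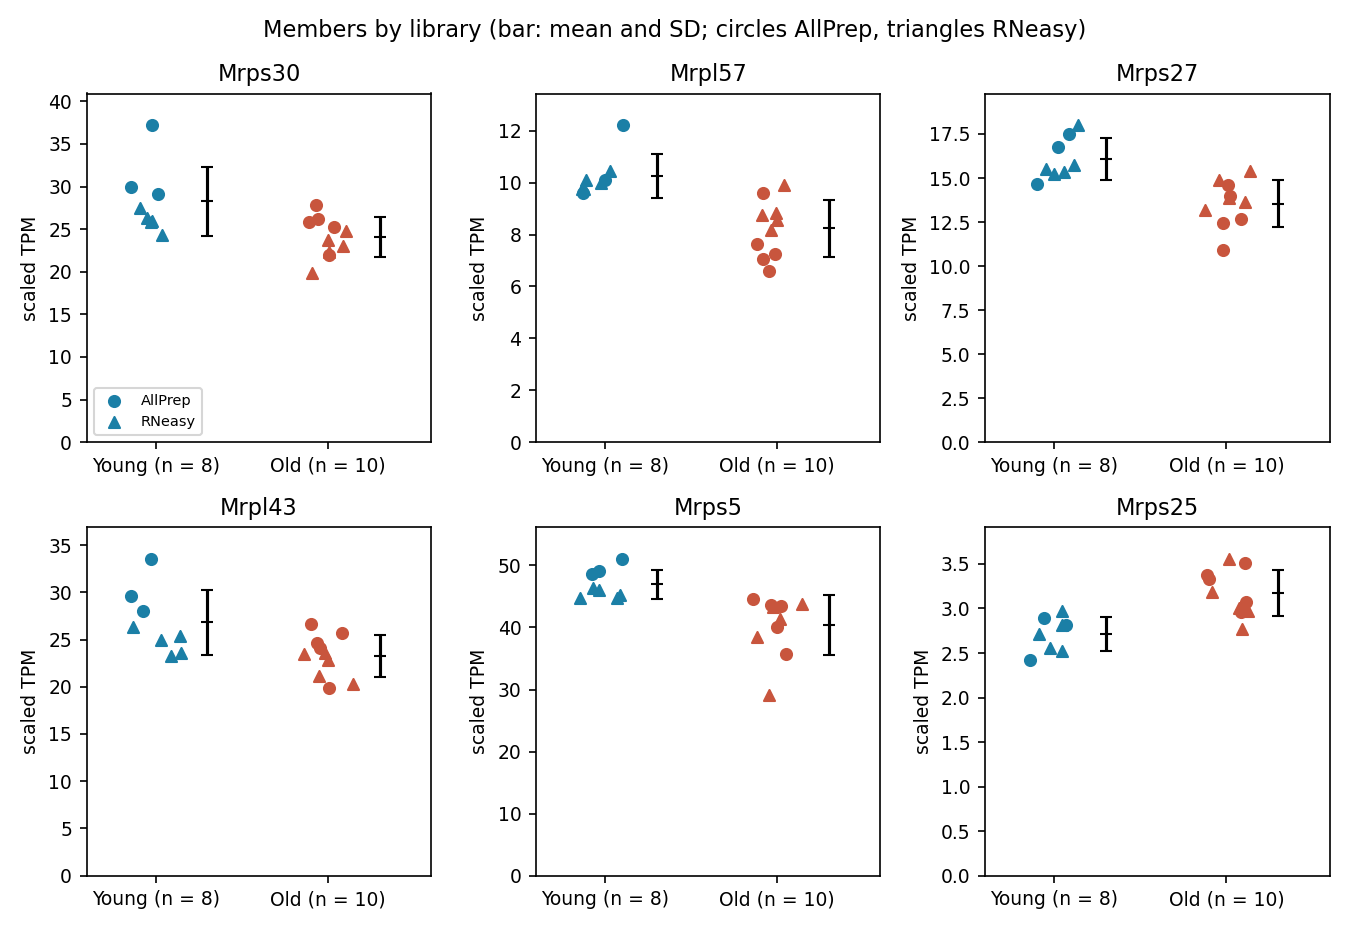
Scaled TPM (vertical axis, from 0) of the 4 members that passed the age test and of Mrps5 and Mrps25, each point a library, with circles for AllPrep and triangles for RNeasy. Black bars are the mean and SD of 8 Young and 10 Old libraries. On this scale the groups separate fully in Mrps5 alone, by a narrow margin. Young replicate 1 is the highest circle of Mrps30 (37.2), Mrpl57 (12.2) and Mrpl43 (33.6).

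Just outside the threshold were Mrps5 (adjusted p = 0.0551), Mrpl20 (0.0651) and Mrps25 (0.0677), followed by Mrps31 (0.0835) and Mrpl46 (0.0940). Mrps5, the counterpart of a bacterial protein at the messenger RNA entrance of the small subunit, had 44.7, 46.2 and 51.1 scaled TPM in Young and 29.1, 42.3 and 44.6 in Old libraries. On scaled TPM it was the single member whose groups did not overlap, every Old library being lower than every Young one. That held for 0.202% of all genes tested, with 0.216% separated in the other direction. The margin was narrow, 44.59 in Old replicate 7 against 44.68 in Young replicate 2. In TPM as deposited the groups of Mrps5 overlapped, and its log2 difference was -0.18 (limma adjusted p = 0.138). On scaled TPM the log2 difference of Mrps5 was -0.24 ± 0.07 (SE) over all libraries, -0.26 in AllPrep and -0.22 in RNeasy libraries. Mrpl20, an early-assembling protein of the large subunit in bacteria, had 44.1 to 59.2 scaled TPM in Young and 28.5 to 46.5 in Old libraries. All 10 Old libraries lay below the Young median and 7 below every Young library.

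Mrps25, the member of lowest level, went the other way. It had 2.42, 2.76 and 2.97 scaled TPM in Young and 2.76, 3.13 and 3.56 in Old libraries. Of the 10 Old libraries, 8 lay above every Young one, and the log2 difference was 0.19 ± 0.06 (SE), 0.23 in AllPrep and 0.16 in RNeasy libraries. The gene overlaps Nr2c2, a nuclear receptor, on the opposite strand, and Nr2c2 had a log2 difference of -0.05 (adjusted p = 0.735). Mrps6 had the highest log2 difference of all members (0.20 ± 0.09, adjusted p = 0.206), with 13.0 to 16.7 scaled TPM in Young and 13.2 to 25.02 in Old libraries. The log2 difference of Mrps6 was 0.05 in AllPrep and 0.31 in RNeasy libraries, and its highest Old value came from replicate 14. The exons of Mrps6 overlap those of the transporter gene Slc5a3 on the same strand, whose log2 difference was 0.24 (adjusted p = 0.228).

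The remaining members of the 12 with the smallest p were all below 0 without passing. Mrps31 had a log2 difference of -0.25, Mrpl46 -0.23, Mrps17 -0.15, Mrpl17 -0.29 and Mrps10 -0.22, with adjusted p from 0.0835 to 0.122. Several members named for their roles, whatever their result, also did not pass. Mrps12, the decoding-site protein in which bacterial mutations confer streptomycin resistance, had a log2 difference of -0.07 (adjusted p = 0.561). Mrpl58, a peptidyl-tRNA hydrolase that frees stalled ribosomes, had -0.11 (adjusted p = 0.564). Mrpl44, whose protein has the fold of a ribonuclease, had -0.08 (adjusted p = 0.441), Mrps28 had -0.16 (0.410) and Mrpl55 -0.11 (0.371).

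Promoter windows of 300 bases, from 250 before to 50 after the transcription start, were taken from RefSeq (GRCm38.p6) and were found by symbol for 66 of the 75 members. They were searched on both strands for the motifs of 3 factors known for driving nuclear genes of mitochondrial proteins. The NRF1 motif was in 13 of the 66 windows (19.7%), against 10.7% of the 10662 tested genes with a window and 5.19% of all 27025 windows. The ETS motif CCGGAAG, bound by GABPA, was in 23 (34.8%), against 18.9% and 9.93%. The YY1 motif AAGATGGCG was in 7 (10.6%), against 3.40% and 1.64%. At least 1 of these motifs was in 38 of the 66 windows (57.6%), against 29.3% of tested genes and 15.1% of all windows. Members with and without a motif had close median age differences, -0.09 and -0.11 for NRF1, -0.11 and -0.08 for ETS and -0.08 and -0.11 for YY1. The windows of the 4 members that fell are printed because these are the genes the age result turns on. They run 5′ to 3′ on the gene's strand, with any match of the 3 motifs, on either strand, in capitals. The window of Mrps27 is chr13:99344536-99344835 on the plus strand, with an ETS and a YY1 match. That of Mrpl57 is chr14:57825989-57826288 on the plus strand, with an NRF1 and an ETS match. That of Mrpl43 is chr19:45006393-45006692 on the minus strand, with 2 ETS matches. That of Mrps30 is chr13:118387203-118387502 on the minus strand, with 0 matches to these letters.
Mrps27: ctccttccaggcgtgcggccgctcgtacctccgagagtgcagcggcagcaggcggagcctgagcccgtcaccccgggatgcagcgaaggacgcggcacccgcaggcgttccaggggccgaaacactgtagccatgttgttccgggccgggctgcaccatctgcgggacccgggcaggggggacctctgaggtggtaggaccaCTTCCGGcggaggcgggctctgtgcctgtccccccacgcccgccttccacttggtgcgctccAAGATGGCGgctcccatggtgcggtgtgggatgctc
Mrpl57: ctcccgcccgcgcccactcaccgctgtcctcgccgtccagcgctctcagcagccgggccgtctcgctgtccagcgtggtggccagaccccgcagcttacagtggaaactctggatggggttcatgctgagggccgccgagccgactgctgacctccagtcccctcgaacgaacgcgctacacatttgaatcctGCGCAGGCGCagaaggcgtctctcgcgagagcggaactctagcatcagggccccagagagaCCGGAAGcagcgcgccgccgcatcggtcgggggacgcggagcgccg
Mrpl43: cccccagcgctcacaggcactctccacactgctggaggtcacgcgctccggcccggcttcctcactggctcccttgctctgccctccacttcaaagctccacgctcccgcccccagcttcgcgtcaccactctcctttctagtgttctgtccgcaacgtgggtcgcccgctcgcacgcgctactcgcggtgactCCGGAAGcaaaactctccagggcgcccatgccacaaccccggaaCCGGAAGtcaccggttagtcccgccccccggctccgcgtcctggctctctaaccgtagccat
Mrps30: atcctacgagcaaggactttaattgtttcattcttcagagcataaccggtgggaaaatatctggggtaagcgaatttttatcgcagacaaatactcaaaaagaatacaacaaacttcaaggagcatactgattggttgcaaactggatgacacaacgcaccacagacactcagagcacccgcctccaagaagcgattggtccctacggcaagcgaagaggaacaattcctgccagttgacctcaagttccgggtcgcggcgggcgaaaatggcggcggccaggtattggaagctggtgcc

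The 75 levels summed to 2455 to 3180 scaled TPM in Young libraries (median 2542) and 2233 to 2813 in Old libraries (median 2483). Young replicate 1 held the highest sum, and the other 7 Young libraries lay between 2455 and 2716, inside the Old range. In Young replicate 1, 74 of 75 members were above their own median over the 18 libraries and 50 reached their highest value. In Old replicate 5 64 members were above their median. At the other end, 10 members were above their median in Old replicate 8 and 16 in Old replicate 9. As shares of all recovered reads the members took 0.141% to 0.193% in Young and 0.128% to 0.166% in Old libraries.

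**Figure D3:**
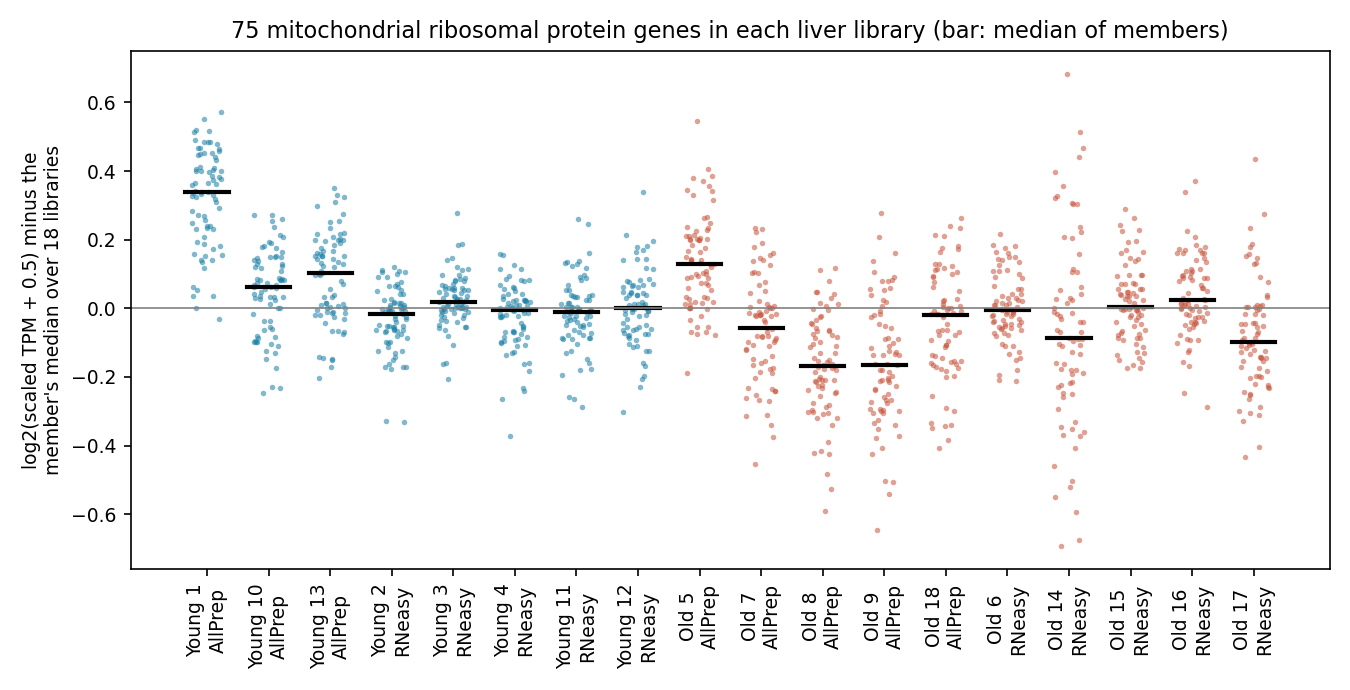
Deviation of each of the 75 members from its own median over the 18 libraries (vertical axis, log2 of scaled TPM plus 0.5), by library, ordered by group and kit, with black bars for the median over members. The bar of Young replicate 1 lies at 0.34 and that of Old replicate 5 at 0.13, while those of Old replicates 8 and 9 lie at -0.17 and -0.16.

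The libraries differed in how the members spread as well. In Old replicate 14, an RNeasy library, 18 members were at their lowest value and 7 at their highest. Mrps5 (29.1 scaled TPM), Mrps31 (24.5) and Mrpl47 (16.2) were among those at their lowest there. Over libraries the log2 range of a member was 0.30 to 1.16, with a median of 0.65.

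Members are short genes for the most part. Of the 75, 48 fell in length classes 1 to 3 of the genes tested, 22 of them in class 2, and 0 in class 10. The libraries with the highest and second-highest sum of members, Young replicate 1 and Old replicate 5, were those with the short-minus-long differences of 0.43 and 0.26. In the same libraries 2 other gene families were high. The median deviation of 82 nuclear-encoded respiratory chain genes was 0.38 in Young replicate 1 and 0.15 in Old replicate 5, and that of 82 cytosolic ribosomal protein genes was 0.49 and 0.32. The 48 members of classes 1 to 3 had a median age difference of -0.11 and the 27 others -0.07. All tested genes of classes 1, 2 and 3 had medians of 0.019, -0.020 and -0.028, and the 14, 22 and 12 members in these classes -0.083, -0.12 and -0.12. With the short-minus-long difference of each library added as a term, 60 members were below 0, their median was -0.048, and 2 members passed as lower (2.12% of all genes did), Mrpl57 (-0.24, adjusted p = 0.0105) and Mrps30 (-0.22, adjusted p = 0.0390).

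**Figure D4:**
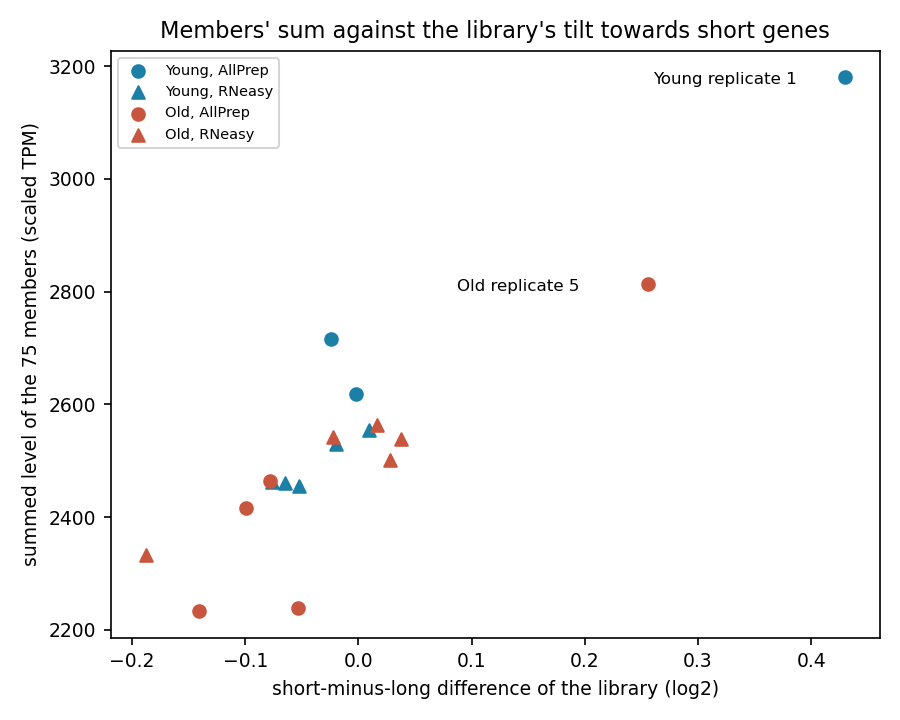
Summed level of the 75 members (vertical axis, scaled TPM, not starting at 0) against the short-minus-long difference of each of the 18 libraries (horizontal axis, log2), by group and kit. Young replicate 1 (0.43, sum 3180) and Old replicate 5 (0.26, sum 2813) lie apart from the other 16 libraries.

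Leaving out Young replicate 1 ended all 4 calls, with 57 members still below 0 and a median of -0.047, where 1.41% of all genes were lower. The median over all genes was then -0.0006. Leaving out Young replicate 10 also ended all 4 calls, at a median of -0.09 and 64 members below 0. The limma adjusted p of the 4 were then 0.0529 to 0.0957. In that fit 1.32% of all genes were lower and the median over all genes was 0.0043. The number of members lower was 1 without Young replicate 11, 12 or 13 or Old replicate 7, 8 or 9, where 1.5%, 1.6%, 1.75%, 1.61%, 1.73% and 1.48% of all genes were lower, in that order. It was 2 without Young replicate 2 or 3 or Old replicate 15, 17 or 18, where 1.37%, 1.78%, 1.53%, 2.81% and 1.78% of all genes were lower. It was 6 without Old replicate 16, where 3.27% of all genes were lower. Among the 18 fits that each left out a single library, Mrps30 passed in 15, Mrpl57 in 10, Mrps27 in 6 and Mrpl43 in 2. The log2 value of Mrps30 stayed between -0.27 and -0.20 in them and that of Mrpl57 between -0.32 and -0.24.

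The fit was repeated within each extraction kit. Among AllPrep libraries (3 Young, 5 Old) 69 of 75 members were below 0 with a median of -0.24, and 0 passed the adjusted threshold, where 47.1% of all genes tested were below 0 and 1.1% passed in either direction. Among RNeasy libraries (5 Young, 5 Old) 37 of 75 were below 0 with a median of 0.0017, and 0 passed, where 50.2% of all genes were below 0 and 0.101% passed. The members' sum ran from 2619 to 3180 scaled TPM in Young AllPrep and from 2233 to 2813 in Old AllPrep libraries. It ran from 2455 to 2554 in Young RNeasy and from 2332 to 2564 in Old RNeasy libraries. The library factor itself was 0.876 to 0.924 in Young AllPrep and 0.912 to 1.08 in Old AllPrep libraries, against 1.003 to 1.07 and 0.979 to 1.08 in RNeasy libraries, and its part in the difference between kits was not tested beyond the values as deposited. Without it, the AllPrep sums were 2293 to 2853 TPM in Young and 2181 to 2564 in Old libraries. The RNeasy sums were then 2537 to 2661 in Young and 2438 to 2731 in Old libraries. Without Young replicate 1, 64 members were below 0 among AllPrep libraries and the median of the mean differences was -0.13, from 2 Young libraries. Without Old replicate 5 as well, 66 were below 0 at a median of -0.19.

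The difference between the kits was tested as an interaction term, the age difference in RNeasy minus that in AllPrep libraries. It was above 0 for 72 of 75 members with a median of 0.20, where 45.7% of all genes tested were above 0 and their median was -0.02. Of the members 0 passed the limma adjusted threshold, and so did 0% of all genes (smallest adjusted p 0.975 over members and 0.0938 over all genes). Among members 10 had an unadjusted p under 0.05, as had 587 (4.22%) of all genes. The smallest p among members were those of Mrpl55, Mrps10, Mrps7 and Mrps22. Mrpl55, a large-subunit protein with a bacterial counterpart, averaged 29.4 scaled TPM in Young AllPrep and 23.6 in Old AllPrep libraries. In RNeasy libraries it averaged 24.3 in Young and 25.1 in Old. The interaction was 0.36 ± 0.13 (SE, limma unadjusted p = 0.0120). Mrps10, a small-subunit protein with a bacterial counterpart, averaged 11.7 and 8.53 scaled TPM in AllPrep and 10.3 and 9.95 in RNeasy libraries, with an interaction of 0.38 ± 0.14 (SE). Without Young replicate 1 the median interaction was 0.11, 67 members were above 0 and 0 had an unadjusted p under 0.05. Without Old replicate 5 alone the median was 0.24, with 72 above 0 and 27 at such a p. Without both libraries it was 0.16, with 69 above 0 and 15 at such a p. With TPM as deposited the median interaction was 0.07 with 56 above 0, where the median over all genes was -0.13.

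**Figure D5:**
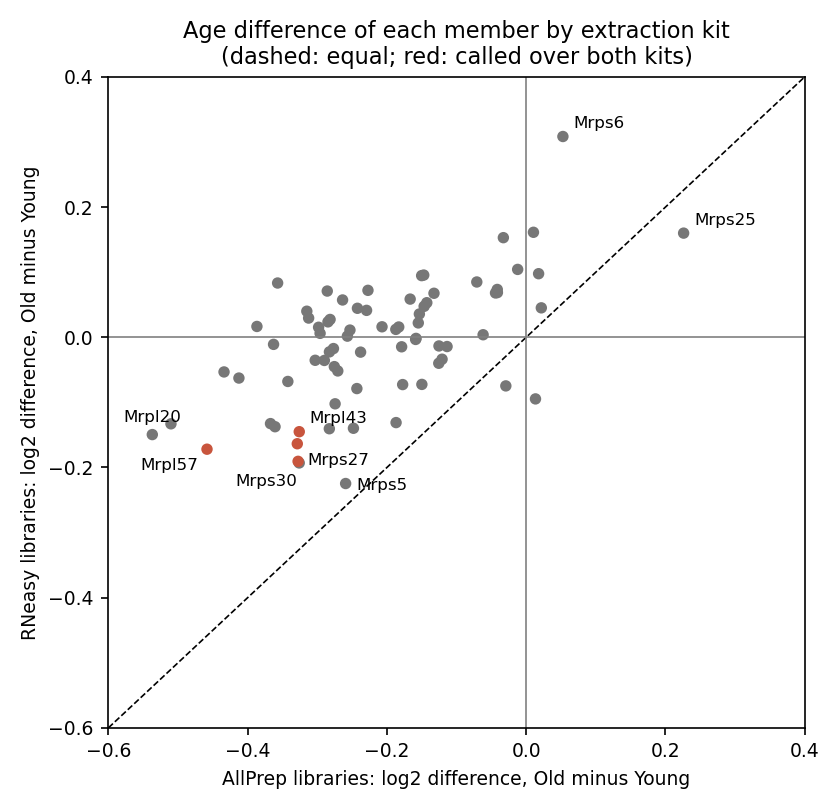
Log2 difference between Old and Young for each of the 75 members in AllPrep libraries (horizontal axis) and in RNeasy libraries (vertical axis). Points above the dashed line of equality, 72 of 75, had the lower value in AllPrep libraries. The 4 red points passed the age test over both kits.

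The labels also give a liver citrate synthase flux for each mouse, a measure of flow into the citric acid cycle, in the units of the label. It was 3.29 to 4.26 in Young (median 3.565) and 2.17 to 3.38 in Old mice (median 2.785). With age and kit in the fit, the slope of 0 members on flux passed the limma adjusted threshold, as for 0% of all 13895 genes (smallest adjusted p 0.925). At an unadjusted p under 0.05 there were 1 member, Mrpl52 (0.27 ± 0.12 log2 per flux unit, SE), and 444 (3.2%) of all genes. Mrpl54 had a slope of 0.34, Mrpl36 -0.18 and Mrpl49 -0.18. Slopes were above 0 for 37 members and below 0 for 38, with a median of -0.002.

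Proteins of the same ribosome that carry other names were described in the same fit. Of 8 such genes 0 were higher and 1 was lower, Mrps18b, at a median log2 difference of -0.12. Over all genes tested, 2.44% were higher and 2.47% lower. Mrps18b, a paralog in a family of mitochondrial ribosomal proteins, had 31.0, 33.5 and 42.9 scaled TPM in Young and 20.4, 26.4 and 37.5 in Old libraries. Old replicate 5, at 37.5, was the single Old library inside the Young range. Mrps18b fell by 0.39 ± 0.09 (SE) on the log2 scale (limma adjusted p = 0.0271), with -0.59 in AllPrep and -0.24 in RNeasy libraries, and its adjusted p was 0.0624 without Young replicate 1. Mrps18c had -0.18 (adjusted p = 0.200), Mrps18a -0.12 (0.369), Gadd45gip1 -0.20 (0.203), Ptcd3 -0.11 (0.318), Aurkaip1 -0.09 (0.442) and Chchd1 -0.12 (0.446). Dap3, a GTP-binding protein of the small subunit, had 0.08 (0.458).

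Among 26 assembly factors of the mitochondrial ribosome 0 were higher and 2 lower, where 2.44% of all genes tested were higher and 2.47% lower. Rpusd3, a pseudouridine synthase family protein acting with the large-subunit RNA, fell by 0.34 ± 0.07 (SE, limma adjusted p = 0.00983), from 16.7 ± 1.89 (SD, n = 8) to 13.1 ± 1.18 (SD, n = 10) scaled TPM. Trub2, a partner of the same RNA granule module, fell by 0.35 ± 0.09 (SE, limma adjusted p = 0.0434), and its adjusted p was 0.0955 without Young replicate 1 and 0.0722 with TPM as deposited. Of 16 translation and release factors tested and 20 aminoacyl-tRNA synthetase genes 0 passed, with median differences of -0.06 and -0.07. At an unadjusted p under 0.05 there were 3 and 4, where 23.4% of all genes tested had such a p. In these lists Mtrf1l, a release factor, had 0.24 (adjusted p = 0.0623), Mtrf1 -0.23 (0.0740), Vars2 -0.21 (0.0575) and Sars2 -0.22 (0.0744). Of 13 genes that transcribe, copy or process mitochondrial DNA and RNA, Mgme1 and Polrmt alone passed. Among all genes tested, 2.44% were higher and 2.47% lower. Mgme1, a DNA nuclease, rose by 0.33 ± 0.08 (SE, limma adjusted p = 0.0229). Polrmt, the mitochondrial RNA polymerase, fell by 0.23 ± 0.06 (SE, limma adjusted p = 0.0422), and its adjusted p was 0.0901 with TPM as deposited.

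Of 9 regulators of mitochondrial biogenesis 1 passed, where 2.44% of all genes tested were higher and 2.47% lower. Myc, a growth factor-responsive transcription factor, fell by 1.78 ± 0.29 (SE) on the log2 scale (limma adjusted p = 0.00345), from 23.9 ± 13.1 (SD, n = 8) to 6.04 ± 3.12 (SD, n = 10) scaled TPM. Ppargc1a, a coactivator that drives biogenesis, had 3.10 ± 0.764 in Young and 2.16 ± 0.353 in Old, a log2 difference of -0.40 (adjusted p = 0.0689). The factors of the searched motifs had differences near 0, Nrf1 0.03, Gabpa -0.01 and Yy1 -0.01. Among 82 nuclear-encoded respiratory chain genes 72 were below 0 at a median of -0.11, and 0 were higher and 1 lower, Cox6b2 (-0.70, adjusted p = 0.0316), a low-level isoform at 1.20 and 0.539 scaled TPM. The members' median was -0.10. Of 82 cytosolic ribosomal protein genes 57 were below 0 at a median of -0.05 and 0 passed, with 2 at an unadjusted p under 0.05, against the same 23.4%. The RNAs of the mitochondrial ribosome itself were in the table after depletion of ribosomal RNA. mt-Rnr1 had 29.3 to 257.6 scaled TPM in Young and 20.0 to 309.8 in Old libraries, and mt-Rnr2 had 19.8 to 116.1 and 13.2 to 113.4, so that these levels are what depletion left and were not compared.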

How the data were processed

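Bulk RNA sequencing was done on rRNA-depleted total RNA of 18 mouse livers, and the values are TPM for 18946 genes, as deposited by the authors in a single table in which each library sums to 1000000. Per the submitters' processing notes, STAR 2.7.9a, Subread and featureCounts and the builds GRCm39 and mm10 were used, with no role stated. TPM ratios gave back whole reads for 18946 of 18946 genes (largest distance from a whole number 1.7e-08), and the ratio of reads to TPM gave relative gene lengths.

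From the TPM, library factors were computed as a trimmed mean of log ratios (30% of ratios and 5% of levels trimmed). Tests used limma 3.58.1 in R 4.3.3 on log2(scaled TPM + 0.5) with a variance trend, age and kit as terms, and Benjamini-Hochberg adjustment over 13895 genes, called under 0.05. A fold change on this scale understates that of low genes. The script was tested on simulated data. The alternatives were other scalings, filters and pseudocounts, no kit term, each kit alone, voom on the recovered reads, library weights and leaving out each library. Leaving out Young replicate 1 with Old replicate 5, and the length term, were added after seeing the data. Members were named by level, by the smallest p for age, interaction and flux, by range, or by role. Genes named from the related lists were mostly those with the smallest p for age in their list. Members with overlaps, Mrps6 and the overlapping genes were added after their values were seen. The members and gene lists were chosen with earlier results of these data known. Labels give 1 mouse per library.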

Additional observations from a re-analysis of the deposited data

Results flagged for a closer look

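Of 66 groups checked for a library far from the others (32 named members and their sum, in Young and in Old), 20 held such a library. The rule would flag about 1 in 20 independent groups by chance. These groups share the same libraries, and some members were named for their range or age p. That rate therefore cannot be set against the 20 found. Of these 20, 18 were Young replicate 1, always the highest of the 8 Young libraries. Its summed level of the members was 3180 scaled TPM, against 2455 to 2716 in the other Young libraries. In scaled TPM it had 207.5 for Mrpl12 (others 143.3 to 171.9), 114.5 for Mrpl33 (others up to 86.2), 81.7 for Mrps7 (up to 68.7), 59.2 for Mrpl20 (up to 49.6) and 51.8 for Mrps31 (up to 43.4). It had 46.6 for Mrpl36, 39.0 for Mrps17, 37.8 for Mrps22, 37.2 for Mrps30, 36.8 for Mrpl47, 35.6 for Mrps28 and 33.6 for Mrpl55. It had 29.3 for Mrpl46, 19.5 for Mrpl58, 18.9 for Mrpl17, 14.2 for Mrps10 and 12.2 for Mrpl57. The same library had the largest short-minus-long difference (0.43), and the part of that tilt in these values was not tested. The remaining 2 were low values in Old replicate 14, 16.2 for Mrpl47 (other Old libraries 23.8 to 28.7) and 24.5 for Mrps31 (34.6 to 40.2).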

How the results depend on the processing

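No paired analysis was possible because the Young and Old groups share no replicate numbers. Under 32 alternatives the number of members higher in Old stayed at 0 in 30, and was 1 (Mrps25) with library weights and without Old replicate 14. The number lower was 0 with TPM as deposited, with AllPrep libraries alone, with RNeasy libraries alone, and with RNeasy libraries alone and no Old replicate 14. It was 2 with no kit term, 1 without Young replicate 1 and Old replicate 5 together, and 2 with the short-minus-long term. With library weights it was 5, Mrps5 and Mrps31 among them, with 57 members below 0 and a median of -0.052. Leaving out each library in turn gave 0 to 6 lower and 0 to 1 higher. The members' median age difference was -0.24 in AllPrep and 0.0017 in RNeasy libraries alone, against -0.10, and -0.11 to -0.047 with a library left out. The cause of these changes was not tested. The interaction and the flux slope had 0 members called under every alternative run for them.

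Among the 32 named members, some that did not pass changed sign. Of these, Mrpl47 (-0.18), Mrps28 (-0.16) and Mrps7 (-0.12) had the largest differences over all libraries. Sign changes of the other members are not listed here. With TPM as deposited Mrpl4 was at 0.0025 and Mrpl52 at 0.049, with no kit term Mrpl52 was at 0.0050, and with the short-minus-long term it was at 0.039. In AllPrep libraries alone Mrpl36 was at -0.041, Mrpl4 at 0.013 and Mrpl42 at -0.012. In RNeasy libraries alone Mrpl12 was at 0.024, Mrpl44 at 0.016, Mrpl52 at 0.096, Mrpl54 at 0.027, Mrpl55 at 0.040, Mrpl58 at 0.083, Mrps28 at 0.017 and Mrps7 at 0.0060. Without Old replicate 14 among them, Mrpl44 was at 0.0034, Mrpl47 at 0.029, Mrpl52 at 0.0021, Mrpl55 at 0.017 and Mrps12 at 0.018. With a library left out, Mrpl52 ran from -0.066 to 0.028 and Mrpl36 from -0.012 to 0.068. The number of mice limits the precision, and every member had at least 192 reads in each library.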
